A study of Mus musculus with 16 samples.

Results

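The comparison described here is the genotype by culture interaction in RNA: which genes responded differently to the loss of Ezh2 in 2 kinds of CD4 T cell culture. It used all 12 RNA libraries of the 16 samples in the series, 3 in each of 4 groups, and the other 4 samples, H3K27me3 ChIP libraries from Th0 cells, were used only to describe genes. All mice carried floxed Ezh2 alleles (Ezh2fl/fl). In the Ezh2KO groups a Cre recombinase driven by Cd4 deleted Ezh2 in T cells, so the deletion was in place before the cells were isolated and cultured. Naive CD4 T cells sorted by flow cytometry were activated with 5 ug/ml of plate-bound anti-CD3 and 1 ug/ml of anti-CD28. Th0 cultures were given IL-2 at 50 U. The iTreg cultures, which induce regulatory T cells, were given IL-2 at 200 U/ml and TGF-beta1 at 5 ng/ml. The protocol states harvest at day 4, but the iTreg titles carry day 5 and the Th0 titles day 4, so that the cytokines, the IL-2 dose and the day of harvest cannot be told apart.

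Ezh2 is the catalytic subunit of Polycomb repressive complex 2 (PRC2), which trimethylates histone H3 at lysine 27 (H3K27me3) and keeps the genes it marks silent. In activated T cells it holds back effector genes that belong to fates the cell has not taken. TGF-beta signals through Smad2 and Smad3 and, together with IL-2, turns on Foxp3, the transcription factor of regulatory T cells.

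The interaction is the log2 change (Ezh2KO over Ezh2fl/fl) in iTreg minus the log2 change in Th0, so a positive value means that the change in iTreg lay above the change in Th0. Levels are in CPM, counts scaled to a common library total, which depend on gene length and are compared between libraries, not between genes. Values per library follow the order of the titles: Th0.Ezh2fl/fl.173, Th0.Ezh2fl/fl.176 and Th0.Ezh2fl/fl.177; Th0.Ezh2KO.165, Th0.Ezh2KO.174 and Th0.Ezh2KO.175; iTreg.Ezh2fl/fl.154, iTreg.Ezh2fl/fl.155 and iTreg.Ezh2fl/fl.177; and iTreg.Ezh2KO.150, iTreg.Ezh2KO.153 and iTreg.Ezh2KO.165. Called means an adjusted p below 0.05 in the edgeR quasi-likelihood test over 12845 genes. In these cultures of many cells, fewer cells of a type and less RNA per cell cannot be told apart.

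The libraries held 21910114 to 28443427 counted reads. Foxp3 marked the iTreg cultures, at 836, 896 and 956 CPM in iTreg controls against 16.3, 24.7 and 23.5 CPM in Th0 controls. The targeted gene, counted over all its exons, had lower values in every Ezh2KO library than in any control of its culture. Ezh2 had 316, 306 and 319 CPM in Th0 controls and 169.9, 154 and 149.6 CPM in Th0 Ezh2KO cells (log2 change -0.99, adjusted p = 0.0618), and 247, 237 and 162 CPM in iTreg controls and 121, 116 and 47.9 CPM in iTreg Ezh2KO cells (log2 change -1.18, adjusted p = 0.0235). Its interaction of -0.19 did not pass the test (adjusted p = 0.958). The libraries iTreg.Ezh2KO.165 and iTreg.Ezh2fl/fl.177 stood apart from their replicates, and a chi-square of their counts against those replicates, divided by its degrees of freedom, was 111 to 370, where all other replicate pairs gave 3.26 to 13.8. Their mean log2 CPM of cell cycle genes was 5.08 and 6.74, against 7.40 to 7.56 in the other iTreg libraries. The libraries Th0.Ezh2KO.165 and iTreg.Ezh2KO.165, which share a number, held 27248 and 25036 reads of Xist, the RNA of the inactive X chromosome of females, and the other libraries at most 21. They also held 10 and 4 reads of the Y-linked gene Ddx3y, against 2114 or more in each of the others. By these genes each Ezh2KO group, and neither control group, held 1 female library. With both left out 1805 genes were called, 570 of the 577 among them.

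Loss of Ezh2 changed 577 genes differently in the cultures, 4.49% of those tested. The interaction was positive for 209 of them (1.63%) and negative for 368 (2.86%). Of all genes tested, 1536 (12%) were called for genotype in Th0 and 2147 (16.7%) in iTreg. Both counts rest on a spread estimated over all groups together. With each culture fitted alone the order reversed, and Th0 had more calls than iTreg (counts in the closing section). Among the 577, the fitted changes had opposite signs in 389. In 271 the change was a rise in Th0 and a fall in iTreg, and in 118 it was the reverse. Both genotype effects passed the test, with opposite signs, in 83 genes: 72 rose in Th0 and fell in iTreg, and 11 fell in Th0 and rose in iTreg. Changes in the same direction made up the rest: 81 genes with a larger rise in iTreg, 47 with a larger rise in Th0, 50 with a larger fall in iTreg and 10 with a larger fall in Th0.

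**Figure D1:**
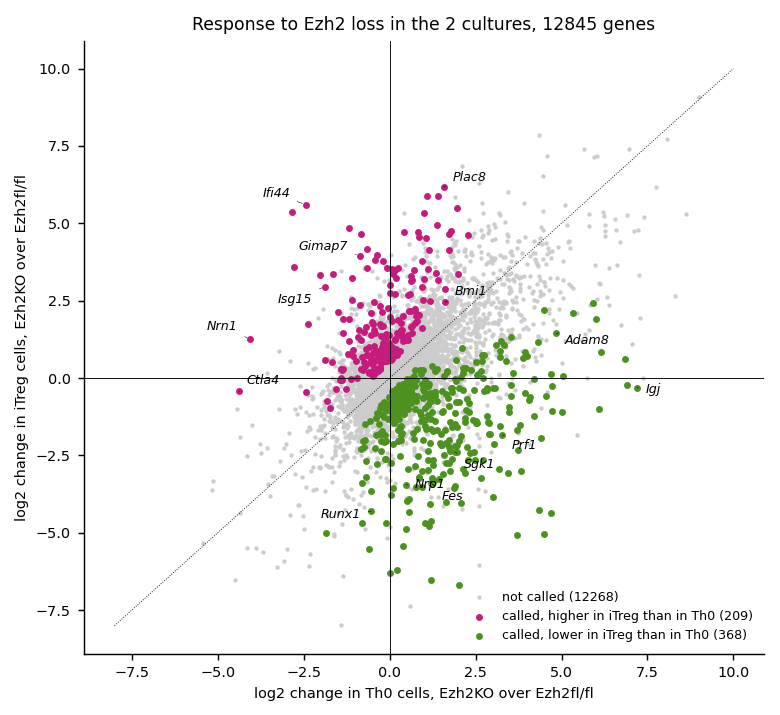
Each point is a gene, with its fitted log2 change (Ezh2KO over Ezh2fl/fl) in Th0 cells on the x axis and in iTreg cells on the y axis. The dotted line marks equal changes. Called genes with a positive interaction (209) lie above it and those with a negative interaction (368) below it, and 389 of the 577 lie in the quadrants of opposite signs.

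The same contrast can be read as the difference between the cultures within each genotype. Among the 577 genes, the fitted difference between iTreg and Th0 was larger in the controls for 385 (66.7%), against 53.7% of all genes tested, and larger in the Ezh2KO cells for 192. Sgk1, a serum- and glucocorticoid-regulated kinase (chromosome 10, 21882184 to 21999903 in mm10), had the smallest p. It was at 12.7, 17.2 and 15.2 CPM in Th0 controls and 58.5, 51.5 and 59.0 CPM in Th0 Ezh2KO cells. In iTreg it was at 197, 186 and 116 CPM in controls and 30.6, 32.5 and 31.6 CPM in Ezh2KO cells (interaction -4.30, SE 0.28, adjusted p = 0.000343). Sgk1 rose in Th0 and fell in iTreg, without overlap between the genotypes, and its level in iTreg controls, the highest of the 4 groups, came down to below that of Th0 Ezh2KO cells.

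How far the calls depend on single libraries differed between genes. All 577 kept their sign in each of the 12 fits that left out 1 library, wherever they were tested, and 245 (63 positive, 182 negative) kept their call in all 12. The count of calls was 271 without Th0.Ezh2fl/fl.173, 291 to 306 without either of the other Th0 controls, 292 to 320 without any one Th0 Ezh2KO library, 304 without iTreg.Ezh2fl/fl.155 and 370 without iTreg.Ezh2KO.150. Without iTreg.Ezh2KO.165 it was 2552, and without it and iTreg.Ezh2fl/fl.177 it was 5347, which included 573 of the 577. Counts of called list members in these fits are to be read against such totals, not against the 1.63% and 2.86% of the fit with all libraries. In the paragraphs below, a called gene with a printed interaction kept its call in all 12 fits unless a loss is described. The number of fits that kept the call is then given, or the libraries without which it was lost, with the largest adjusted p. Slc7a3, Tox, Entpd1, Oas1a, Oas1g and I830012O16Rik, named without an interaction value, were called but lost the call in at least 1 fit. The flagged genes of the closing section are listed without this count.

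Interferon-response genes had the highest median interaction of the 33 gene lists, but not without iTreg.Ezh2KO.165, where the medians were 1.34 for interferon response, 1.45 for amino acid stress and serine synthesis and 1.47 for sterol synthesis. Of 56 genes tested, 28 were called with a positive interaction and none with a negative one, against 1.63% and 2.86% of all genes, and 55 had a positive value. Their median interaction was 1.92, against 0.01 over all genes, with median changes of -0.29 in Th0 and 1.49 in iTreg. With Ezh2 loss 37 of the 56 rose and 1 fell in iTreg, where 9.45% of all genes rose and 7.26% fell. In Th0 3 rose and 3 fell, against 8.74% and 3.22% of all genes. These genes encode antiviral proteins that cells make when interferon activates transcription factors that bind the interferon-stimulated response element (ISRE). An ISRE core, 2 copies of GAAA with any 2 bases between them on either strand, was found in the promoter window (250 bases before to 50 after a start, RefSeq, GRCm38.p6) of 23 of the 42 list members with an entry (54.8%), of 15 of the 23 called members with an entry (65.2%) and of 388 of 10225 tested genes with an entry (3.79%). Among all 158 matched genes with a positive call the share was 16.5%, and among 287 with a negative call 3.83%. The 158 include the 23 called interferon members, so the 16.5% is not separate from the share of the list. A match to these letters is not evidence of binding. The 250 bases before the start of 5 called members are shown because they carry the element, which is in capitals, overlapping matches merged, in the direction of transcription.
Isg15 (chr4:156200819-156201068, minus strand): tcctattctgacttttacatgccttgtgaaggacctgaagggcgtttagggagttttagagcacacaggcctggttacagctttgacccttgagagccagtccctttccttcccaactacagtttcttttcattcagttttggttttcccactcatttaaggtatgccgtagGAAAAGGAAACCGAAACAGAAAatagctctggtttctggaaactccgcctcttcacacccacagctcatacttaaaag
Ifit1 (chr19:34640639-34640888, plus strand): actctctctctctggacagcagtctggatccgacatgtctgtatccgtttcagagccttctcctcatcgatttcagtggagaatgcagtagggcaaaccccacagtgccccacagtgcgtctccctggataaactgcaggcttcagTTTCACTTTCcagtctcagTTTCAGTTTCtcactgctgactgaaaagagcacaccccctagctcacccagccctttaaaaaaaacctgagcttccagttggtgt
Rsad2 (chr12:26456453-26456702, minus strand): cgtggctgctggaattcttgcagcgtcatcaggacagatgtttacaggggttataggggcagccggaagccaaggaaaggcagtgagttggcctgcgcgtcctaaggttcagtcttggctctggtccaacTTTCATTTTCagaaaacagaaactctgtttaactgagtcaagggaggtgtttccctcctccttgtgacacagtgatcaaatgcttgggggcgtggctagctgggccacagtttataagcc
Oas1a (chr5:120907526-120907775, minus strand): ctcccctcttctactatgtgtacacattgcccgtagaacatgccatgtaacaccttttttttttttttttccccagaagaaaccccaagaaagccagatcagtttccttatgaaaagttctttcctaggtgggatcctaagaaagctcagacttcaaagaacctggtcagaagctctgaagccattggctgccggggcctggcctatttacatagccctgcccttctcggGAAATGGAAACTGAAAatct
Gbp5 (chr3:142496684-142496933, plus strand): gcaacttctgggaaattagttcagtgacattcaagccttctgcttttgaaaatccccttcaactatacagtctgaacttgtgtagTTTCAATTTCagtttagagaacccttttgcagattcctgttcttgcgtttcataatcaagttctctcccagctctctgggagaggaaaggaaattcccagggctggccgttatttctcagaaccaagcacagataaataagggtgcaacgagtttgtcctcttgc

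Isg15, a ubiquitin-like protein that is attached to other proteins after interferon (chromosome 4, 156199424 to 156200818), was at 33.4, 8.87 and 12.7 CPM in Th0 controls and 3.76, 4.88 and 6.30 CPM in Th0 Ezh2KO cells. In iTreg it was at 1.46, 1.32 and 0.669 CPM in controls and 7.75, 8.14 and 11.1 CPM in Ezh2KO cells. The groups did not overlap in either culture, and Isg15 fell in Th0 and rose in iTreg (interaction 4.84, SE 0.70, adjusted p = 0.00527). Usp18, the protease that removes Isg15 from its targets, rose in iTreg from 2.25, 1.16 and 2.64 to 20.8, 19.5 and 29.3 CPM, and its Th0 values overlapped at 44.7, 17.1 and 21.6 CPM in controls and 20.1, 30.8 and 36.7 CPM in Ezh2KO cells (interaction 3.45, SE 0.59, adjusted p = 0.0109). Ifit1, which binds viral RNA, rose in iTreg from 1.61, 0.642 and 1.26 to 12, 14.2 and 63.8 CPM, against 27.2, 10.2 and 12 and 6.20, 9.90 and 11.8 CPM in Th0 (interaction 5.49, SE 1.00, adjusted p = 0.0139). The value of 63.8 CPM in iTreg.Ezh2KO.165 stood far above its replicates. Ifi44 had the largest interaction of the list, 8.04 (SE 1.17, adjusted p = 0.00527), with 0.225, 0.160 and 0.0394 CPM in iTreg controls and 5.23, 4.32 and 11.9 CPM in iTreg Ezh2KO cells. Its fitted Th0 change was a fall, and its iTreg control levels rest on few reads, so the size of this interaction is uncertain. At higher levels, Lgals3bp went from 45.2, 34.6 and 24.9 to 207, 211 and 283 CPM in iTreg (interaction 2.73), and Ifi47, an interferon-induced GTPase, from 271, 249 and 300.1 to 502, 499.5 and 605 CPM (interaction 1.10). Neither was called in Th0.

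The antiviral enzyme Rsad2 (interaction 6.02, called in 5 of the 12 fits, p up to 0.0801) and Ifit3 (interaction 5.02, 6 fits, p up to 0.0752) followed the same direction with wider spread. Ifit3 and its near copy I830012O16Rik, and Oas1a and Oas1g, may share reads, so their separate values are uncertain. Cxcl10, an interferon-induced chemokine for cells with the receptor Cxcr3, rose in iTreg from 0.0749, 0 and 0.197 to 3.69, 3.35 and 4.58 CPM (interaction 4.34, adjusted p = 0.0165). Its call was lost without Th0.Ezh2fl/fl.173 or without Th0.Ezh2KO.174, with adjusted p up to 0.0528. One control library moved with the Th0 side of this pattern: Th0.Ezh2fl/fl.173 had a mean of 6.35 log2 CPM over the list, against 5.53 and 5.81 in its replicates and 5.18 to 5.67 in Th0 Ezh2KO cells. Without it 12 members were called and the median interaction was 1.69. The count was 10 without iTreg.Ezh2fl/fl.155, 15 without Th0.Ezh2fl/fl.177, 9 to 11 without any one Th0 Ezh2KO library, and 19 to 40 without any one of the other libraries. Without iTreg.Ezh2KO.165 and iTreg.Ezh2fl/fl.177, when 5347 genes were called in all, there were 44, and the list median was 1.47. The iTreg controls, at 4.28 to 4.71, had the lowest list means of the 12 libraries, and the iTreg Ezh2KO libraries, at 5.92 to 6.70, lay within or above the range of the Th0 controls.

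**Figure D2:**
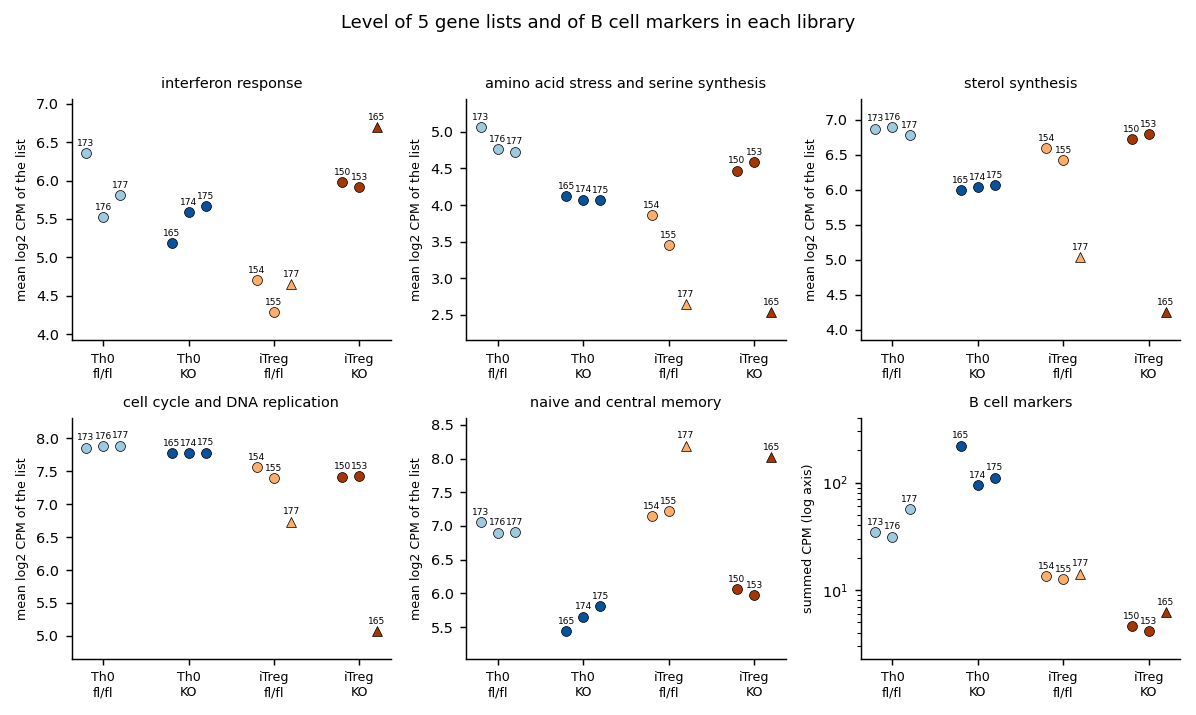
Each panel shows 1 value per library for the 4 groups: the mean log2 CPM of 5 gene lists, and the summed CPM of B cell markers on a log axis. Numbers are title numbers, and triangles are iTreg.Ezh2KO.165 and iTreg.Ezh2fl/fl.177. Interferon genes are lowest in iTreg controls (4.28 to 4.71), and the triangles stand apart in sterol, cell cycle and naive genes.

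Amino acid stress genes, which cells turn on through the factor Atf4 when amino acids run short, also leaned to positive values. Of 30 tested, 6 were called, all positive (against 1.63% of all genes), 29 had a positive interaction (6578 of 12845 over all genes), and the median was 1.21. The median change with Ezh2 loss was -0.64 in Th0, with 4 called lower (against 3.22% of all genes), and 0.55 in iTreg, with 4 called higher (against 9.45%). Cebpb, a leucine zipper transcription factor, rose in iTreg from 2.74, 3.21 and 2.13 to 6.89, 6.57 and 6.96 CPM and was at 10.6, 10.3 and 9.80 and 10.7, 8.64 and 9.32 CPM in Th0 controls and Ezh2KO cells (interaction 1.43, SE 0.23, adjusted p = 0.00771). Its Th0 groups overlapped and its iTreg groups did not. Atf3, a stress-induced repressor, rose in iTreg from 0.337, 0.160 and 0.157 to 7.50, 7.88 and 2.29 CPM, against 5.94, 3.38 and 3.71 and 9.14, 4.21 and 3.91 CPM in Th0 (interaction 4.31, SE 0.80, adjusted p = 0.0152), and lost its call without iTreg.Ezh2fl/fl.155 (adjusted p = 0.0554). Slc6a9, a glycine transporter, had 1.65, 0.962 and 1.14 CPM in iTreg controls and 7.50, 7.71 and 1.48 CPM in iTreg Ezh2KO cells, where iTreg.Ezh2KO.165 lay among the controls (interaction 3.66, 4 fits, p up to 0.0712). Atf5 (interaction 1.26, 7 fits, p up to 0.0722) and the pseudokinase Trib3 (interaction 1.4, 3 fits, p up to 0.0975) fell in Th0. The count of called members depended on the libraries that stood apart: it was 26 of 30 without them both, when 5347 genes were called in all, and 20 without iTreg.Ezh2KO.165 alone, when 2552 were. It was 4 or 5 without iTreg.Ezh2fl/fl.154 or either library with 177 in its title, 1 without iTreg.Ezh2fl/fl.155, and 2 or 3 without any one of the remaining libraries. Slc7a3, an amino acid transporter named after its values were seen, was the sixth called member. A CEBP-ATF element, TGATGNAA on either strand, was in the window of 8 of 26 list members with an entry (30.8%) and of 2.88% of tested genes with an entry. Atf3 is shown because it was called and carries the element before its start.
Atf3 (chr1:191183334-191183583, minus strand): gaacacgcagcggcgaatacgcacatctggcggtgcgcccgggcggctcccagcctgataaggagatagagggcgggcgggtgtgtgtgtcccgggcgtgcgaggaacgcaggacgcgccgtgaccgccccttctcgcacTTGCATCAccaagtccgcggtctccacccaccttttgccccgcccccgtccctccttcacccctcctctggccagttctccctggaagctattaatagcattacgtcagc

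Sterol synthesis genes showed a smaller shift. Of 24 tested 1 was called, with a positive value (against 1.63% of all genes), and 23 had a positive interaction. The list median was 1.00 (0.64 to 1.47 in the fits without 1 library, lowest without iTreg.Ezh2fl/fl.177), with median changes of -0.85 in Th0 and 0.12 in iTreg. The called member, Tm7sf2, a sterol reductase, fell in Th0 from 12.5, 13.5 and 14.7 to 4.88, 5.44 and 5.41 CPM and was at 12.1, 12.4 and 8.19 and 11.3, 10.6 and 9.75 CPM in iTreg (interaction 1.32, SE 0.24, adjusted p = 0.0129). Without iTreg.Ezh2KO.165 and iTreg.Ezh2fl/fl.177, whose list means were 4.25 and 5.04 log2 CPM against 6.42 to 6.80 in the other iTreg libraries, 23 of 24 were called, and 13 without iTreg.Ezh2KO.165 alone. Over all genes those fits called 5347 and 2552. The sterol response element TCACNCCAC, searched on both strands, was in the window of 1 of 17 members with an entry, and of 1.34% of tested genes with an entry.

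Gimap genes encode GTPases of lymphocyte survival that lie side by side on mouse chromosome 6. All 8 had a positive interaction (median 1.33), and 3 were called, against 1.63% of all genes. Gimap7 was at 83.9, 63.3 and 67.9 CPM in Th0 controls and 31.8, 37.2 and 49.4 CPM in Th0 Ezh2KO cells, and at 7.79, 4.01 and 6.10 CPM in iTreg controls and 93.8, 88.1 and 95.9 CPM in iTreg Ezh2KO cells (interaction 4.81, SE 0.34, adjusted p = 0.000351). It was lower in every iTreg control than in every other library, and it fell in Th0 and rose in iTreg. Gimap5 rose in iTreg from 46.2, 38.7 and 50.4 to 104, 115 and 125 CPM (interaction 1.02), and Gimap4 from 597, 482 and 879 to 1512, 1564 and 2133 CPM (interaction 1.53, 4 fits, p up to 0.0861). The count was 6 without iTreg.Ezh2fl/fl.177 and 5 without iTreg.Ezh2KO.165, and 2 or 3 without any one of the other libraries. On the list of T cell identity and signalling, Cd3g, a CD3 subunit, also had a called positive value (interaction 1.4, 6 fits, p up to 0.0593). Pim2, a survival kinase downstream of cytokine receptors, rose in iTreg from 60.3, 50.1 and 34.4 to 263, 305 and 131 CPM and was at 238, 219 and 199 and 201, 196 and 233 CPM in Th0 (interaction 2.33, SE 0.41, adjusted p = 0.0129).

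**Figure D3:**
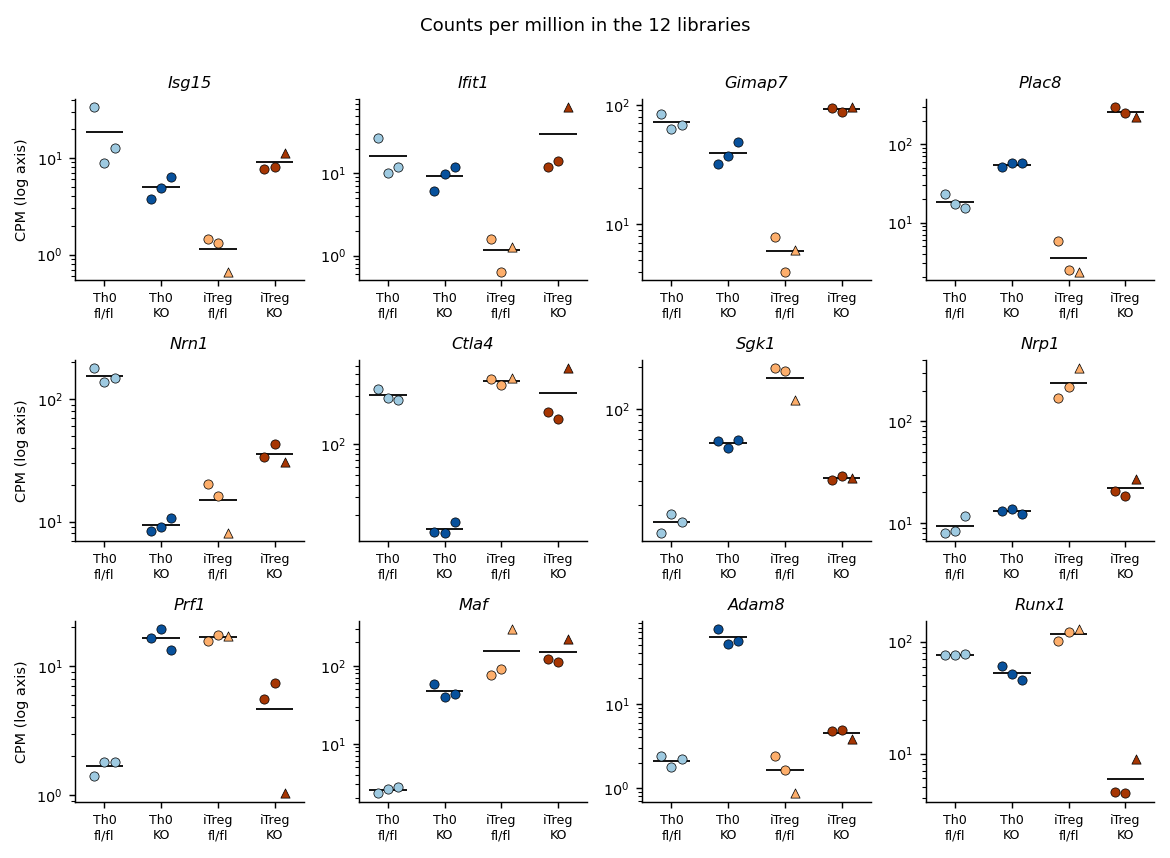
CPM on a log axis in each of the 12 libraries for 12 genes, with the group mean as a bar. Triangles are iTreg.Ezh2KO.165 and iTreg.Ezh2fl/fl.177. Isg15 and Gimap7 fall in Th0 and rise in iTreg, Sgk1 and Prf1 rise in Th0 and fall in iTreg, Ctla4 falls in Th0 with overlapping values in iTreg, and Runx1 falls in iTreg with a Th0 change that was not called.

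Regulatory T cell genes were split. Of 23 tested, 3 were called with a positive and 3 with a negative interaction (13% each, against 1.63% and 2.86% of all genes), with a median of -0.50. The median for the regulatory T cell list was -0.03 without Th0.Ezh2KO.165, -0.14 without iTreg.Ezh2fl/fl.177 and -0.77 without iTreg.Ezh2KO.165. Foxp3 fell in both cultures, by 2.45 in Th0 and 3.52 in iTreg on the log2 scale, and its interaction of -1.07 was not called (adjusted p = 0.247). Ctla4, an inhibitory receptor that regulatory T cells need (chromosome 1, 60887000 to 60915832), fell in Th0 from 353, 286 and 277 to 13.7, 13.5 and 17 CPM. In iTreg it was at 440.1, 385 and 458 CPM in controls and 209.8, 180.3 and 568 CPM in Ezh2KO cells, where iTreg.Ezh2KO.165 exceeded every control (interaction 3.95, SE 0.54, adjusted p = 0.00403). Nrn1, the surface protein neuritin, fell in Th0 from 179, 138 and 148 to 8.44, 8.97 and 10.7 CPM and rose in iTreg from 20.5, 16.3 and 8.15 to 33.9, 42.8 and 30.6 CPM (interaction 5.30, SE 0.42, adjusted p = 0.00045). The third positive call, the inhibitory receptor Tigit, rose in both, from 0.753, 0.807 and 1.33 to 4.76, 5.44 and 3.81 CPM in Th0 and from 0.787, 0.521 and 0.630 to 16.5, 13.3 and 18.3 CPM in iTreg, and more in iTreg (interaction 2.35, SE 0.37, adjusted p = 0.00771). Nrp1, a coreceptor for semaphorins, had its highest level in iTreg controls and fell there from 169.6, 217 and 334 to 20.4, 18.4 and 27.2 CPM, against 8.07, 8.26 and 11.8 and 13, 13.8 and 12.3 CPM in Th0 (interaction -3.92, SE 0.37, adjusted p = 0.000896). The surface protein Cd83 rose in Th0 from 3.89, 4.00 and 5.39 to 21.9, 10.6 and 9.36 CPM and fell in iTreg from 3.56, 4.97 and 2.60 to 0.122, 0.127 and 0.449 CPM (interaction -5.64, SE 0.70, adjusted p = 0.00275). The third negative call was Entpd1 (Cd39), an ectoenzyme that breaks down ATP, named after its values were seen. There were 5 negative calls without iTreg.Ezh2KO.165, and 2 or 3 without any one of the other libraries.

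Among inhibitory receptors, 3 of 11 were called in each direction, against 1.63% positive and 2.86% negative calls among all genes. The positive ones were Ctla4, Tigit and the transcription factor Tox, and the negative ones Havcr2, Cd200r1 and Entpd1; Tox and Entpd1 are named after their values were seen. Havcr2 (Tim-3) rose in Th0 from 0.418, 0.576 and 0.430 to 13.5, 8.34 and 7.08 CPM and by less in iTreg, from 1.20, 0.842 and 1.02 to 2.23, 3.01 and 1.66 CPM (interaction -3.16, SE 0.45, adjusted p = 0.00526). Cd200r1, the receptor for Cd200, rose in Th0 (interaction -3.46, 5 fits, p up to 0.0847). The median of the inhibitory receptors was 0.08, and -0.17 to 0.38 in the fits without 1 library. The negative calls numbered 1 in fits without iTreg.Ezh2KO.150 or any one Th0 library, and there were 5 positive and 4 negative calls without iTreg.Ezh2KO.165.

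TGF-beta pathway genes leaned to negative values. Of 23 tested, 4 were called, all negative (against 2.86% of all genes), 4 had a positive value (6578 of 12845 over all genes), and the median was -0.73, with median changes of 0.43 in Th0 and -0.13 in iTreg. Smad3, which carries the signal to the nucleus, was at 50.3, 48.9 and 50.0 and 55.8, 66.8 and 72.5 CPM in Th0 controls and Ezh2KO cells, and fell in iTreg from 48.9, 50.9 and 61.0 to 26.7, 29.7 and 18.6 CPM (interaction -1.49, SE 0.24, adjusted p = 0.009). Every iTreg Ezh2KO library lay below every iTreg control. Id1, an inhibitor of helix-loop-helix factors (interaction -4.56, 2 fits, p up to 0.126), and Ltbp4, which binds latent TGF-beta (interaction -2.33, 2 fits, p up to 0.0948), were the other called members beside Nrp1. The count was 9 without iTreg.Ezh2KO.165, 4 without iTreg.Ezh2fl/fl.177 and 2 without any one of the other libraries, and the median for TGF-beta pathway and response was -0.36 without iTreg.Ezh2fl/fl.177. The Smad palindrome GTCTAGAC, which reads the same on both strands, was in no window of the 14 members with an entry and in 0.323% of tested genes with an entry.

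Chemokine receptors were called in 5 of 14 cases, all negative, against 2.86% of all genes. Cxcr4, the receptor for Cxcl12, rose in Th0 from 5.77, 4.69 and 3.71 to 20.3, 14.0 and 13.4 CPM and fell in iTreg from 41.4, 30.0 and 72.4 to 14.8, 17.8 and 21.0 CPM (interaction -3.17, SE 0.46, adjusted p = 0.00527). Ccr8 did the same, from 7.48, 9.99 and 10.9 to 36.4, 16.2 and 20.9 CPM in Th0 and from 34.8, 34.1 and 38.4 to 12, 11.9 and 9.93 CPM in iTreg (interaction -3.04, SE 0.38, adjusted p = 0.00303). Ccr6 fell in iTreg from 2.1, 2.45 and 2.83 to 0.0406, 0.0424 and 0 CPM and was at 2.38, 2.19 and 4.96 and 2.56, 3.05 and 5.51 CPM in Th0 (interaction -6.43). Cx3cr1 fell in iTreg from 11.2, 10.5 and 24.3 to 1.99, 2.25 and 4.99 CPM and rose in Th0 from 0.0418, 0.115 and 0 to 1.05, 0.670 and 0.569 CPM (interaction -6.04). Ccr4 fell in iTreg from 164, 185 and 113 to 15, 14.4 and 4.00 CPM (interaction -3.81) and lost its call without Th0.Ezh2fl/fl.173 or Th0.Ezh2fl/fl.176, with adjusted p up to 0.0548. Without iTreg.Ezh2KO.165 there were 7 negative calls and 1 positive one. Ccl1, the ligand of Ccr8, rose in both cultures, and more in Th0 (interaction -4.10, 5 fits, p up to 0.0884).

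Cytotoxic effector genes changed with Ezh2 loss in both cultures. In the cytotoxic list 11 of 17 rose in Th0 and 12 of 17 in iTreg, against 8.74% and 9.45% of all genes. Of the 17, 2 were called in the interaction, both negative, against 2.86% of all genes. That count depended on the libraries that stood apart: without iTreg.Ezh2KO.165 there were 4 positive and 2 negative calls, and without it and iTreg.Ezh2fl/fl.177 there were 6 and 2. The lack of a call does not show that a gene responded alike in the cultures. Prf1, the pore-forming protein perforin (chromosome 10, 61297836 to 61304263), rose in Th0 from 1.42, 1.81 and 1.80 to 16.5, 19.3 and 13.2 CPM and fell in iTreg from 15.7, 17.2 and 17.2 to 5.60, 7.42 and 1.03 CPM (interaction -5.11, SE 0.74, adjusted p = 0.00527). Ctsw, the protease cathepsin W, rose in Th0 from 43.2, 47.6 and 52.1 to 162, 201 and 183 CPM, and in iTreg it was at 319, 393 and 586 and 360.0, 367 and 487 CPM (interaction -2.03, SE 0.31, adjusted p = 0.00633). The interactions of Gzma (-0.34), Gzmb (2.61) and Eomes (0.49) were not called (adjusted p = 0.979, 0.608 and 0.916). Gzmb had 2048 and 2551 CPM in iTreg.Ezh2KO.150 and iTreg.Ezh2KO.153 but 18.2 in iTreg.Ezh2KO.165, and its interaction had an SE of 1.77. Summed markers of other cytotoxic lineages also differed between the genotypes, those of CD8 T cells in iTreg alone. The sum of CD8 T cell markers was 39.0 to 136 CPM in iTreg Ezh2KO cells against 17.6 to 26.3 in iTreg controls, and its ranges overlapped in Th0 (6.40 to 10.0 against 7.07 to 10.4). Cd8a was at 119 and 115 CPM in iTreg.Ezh2KO.150 and iTreg.Ezh2KO.153. It was at 17.4 CPM in iTreg.Ezh2KO.165, against 8.38 to 16.8 in iTreg controls. The sum of natural killer and gamma-delta T cell markers was higher with Ezh2 loss in both cultures, at 82.9 to 110.1 CPM against 21.3 to 31.5 in iTreg and at 13.1 to 17.7 CPM against 3.36 to 4.18 in Th0. Klrd1 and Klrk1 made up most of this sum. The other members counted, Ncr1, Klrb1c, Klra8, Zbtb16 and Sox13, were each at 1.56 CPM or less in every library. None of these markers was called in the interaction by edgeR. Without iTreg.Ezh2KO.165 both tested CD8 T markers were called, with positive values, and 1 of the NK, NKT and gamma-delta T markers, with a negative one. Their part in the values was not tested.

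In the T helper 1 list 1 of 18 members was called in each direction, against 1.63% positive and 2.86% negative calls among all genes. Il12rb2, a subunit of the IL-12 receptor, rose in iTreg (interaction 3.59, 3 fits, p up to 0.0879), and Ifngr2, a subunit of the interferon gamma receptor, fell there (interaction -1.4, 2 fits, p up to 0.0825). Without iTreg.Ezh2KO.165 there were 4 positive and 2 negative T helper 1 calls. Interactions of Tbx21 (1.21, adjusted p = 0.164) and Ifng (-2.40, adjusted p = 0.382) were not called. Of 14 T helper 2 genes 4 were called, all negative (against 2.86% of all genes), with a median of -1.64. The median was -0.74 without Th0.Ezh2KO.165, whose T helper 2 list mean was 5.23 log2 CPM against 4.09 and 4.13 in its replicates. Maf, a transcription factor that drives Il4 and Il10, rose in Th0 from 2.30, 2.61 and 2.81 to 58.0, 39.5 and 43.9 CPM and was at 75.6, 90.3 and 297 and 124, 111 and 220.4 CPM in iTreg (interaction -4.21, SE 0.71, adjusted p = 0.0106). Its Th0 groups were far apart and its iTreg groups overlapped. Il1rl1, the IL-33 receptor (interaction -6.52, 4 fits, p up to 0.114), joined Maf, Ccr4 and Ccr8, and 2 were left without Th0.Ezh2fl/fl.173 or Th0.Ezh2fl/fl.176, against 6 without iTreg.Ezh2KO.165. The interactions of Gata3 (-1.69, adjusted p = 0.0544) and Il10 (-1.59, adjusted p = 0.813) did not pass.

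Of 28 transcription factors induced by the T cell receptor 4 were called, 1 positive and 3 negative (against 1.63% and 2.86% of all genes), and without iTreg.Ezh2KO.165 the TCR-induced transcription factors had 2 positive and 7 negative calls. The 4 were Jun, Nfatc2, Fosl2 and Egr3. Runx1, Fes and Gna15, also described here, are not on that list. Runx1, which shapes T cell development and acts with Foxp3 (chromosome 16, 92601467 to 92826066), fell in iTreg from 101, 121 and 129.6 to 4.54, 4.41 and 8.94 CPM. In Th0 it was at 76.0, 76.4 and 77.4 CPM in controls and 60.7, 51.9 and 45.9 CPM in Ezh2KO cells, a difference that was not called (interaction -3.76, SE 0.35, adjusted p = 0.000896). Nfatc2, a factor activated by calcium after T cell receptor signals, fell in iTreg from 216, 221 and 187 to 112, 108 and 92.1 CPM and was between 141 and 172 CPM in the Th0 libraries of both genotypes (interaction -1.06). The AP-1 members differed from each other: Jun fell in Th0 and rose in iTreg (interaction 1.19), whereas Fosl2 rose in both, from 8.78, 8.45 and 7.85 to 95.4, 67.5 and 76.4 CPM in Th0 and from 4.91, 5.69 and 4.72 to 12.2, 16.3 and 7.10 CPM in iTreg (interaction -2.04). Egr3 rose in Th0 (interaction -1.89, 3 fits, p up to 0.0864). Fes, a cytoplasmic tyrosine kinase, rose in Th0 from 0.627, 0.922 and 0.664 to 2.32, 1.38 and 1.57 CPM and fell in iTreg from 51.2, 71.2 and 53.2 to 6.16, 5.26 and 4.85 CPM (interaction -4.67, SE 0.34, adjusted p = 0.000351). Gna15, a G protein alpha subunit, rose in Th0 from 3.93, 4.30 and 3.95 to 12.9, 10.4 and 12.1 CPM and fell in iTreg from 15.7, 13.8 and 12.1 to 6.85, 7.04 and 5.84 CPM (interaction -2.61, SE 0.21, adjusted p = 0.000421).

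Plac8 and Adam8 rose in both cultures by different amounts. Plac8 rose from 23.0, 17.4 and 15.2 to 50.6, 57.5 and 57.1 CPM in Th0 and from 5.81, 2.49 and 2.36 to 299, 253 and 223 CPM in iTreg (interaction 4.61, SE 0.45, adjusted p = 0.00102). Adam8, a membrane-bound metalloprotease, rose from 2.38, 1.81 and 2.19 to 76.7, 50.8 and 55.6 CPM in Th0 and from 2.40, 1.64 and 0.866 to 4.75, 4.87 and 3.82 CPM in iTreg (interaction -3.39, SE 0.44, adjusted p = 0.00327). In both genes no Ezh2KO library overlapped a control of its culture. The serpin Serpina3f also rose in both, more in iTreg (interaction 3.52), and Tspan9 more in Th0 (interaction -3.50, 9 fits, p up to 0.0603). Osgin1 rose in iTreg, with a Th0 change of 0.83 that was not called (interaction 3.89), and the galectin Lgals3 rose in Th0, with an iTreg change of 0.73 that was not called (interaction -3.27, 2 fits, p up to 0.131). Cyp1b1, a cytochrome P450, rose in Th0 and had a change of 0.62 in iTreg that was not called (interaction -6.22). Pdlim4 fell in iTreg from 44.4, 68.7 and 76.5 to 2.56, 2.37 and 2.43 CPM and had a Th0 change of -0.81 that was not called (interaction -3.87). Tmcc3 (interaction 1.19) and the enolase Eno3 (interaction 1.97, 6 fits, p up to 0.0685) fell in Th0 and were not called in iTreg. She fell in both cultures, and more in iTreg (interaction -3.13).

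Of the Polycomb genes, none of the 12 of PRC2 was called by edgeR or DESeq2, and 1 had an unadjusted p below 0.05. Without iTreg.Ezh2KO.165 there was 1 negative call on the list of PRC2 core and accessory genes and 2 positive and 3 negative ones on that of PRC1. With all libraries 2 of 18 genes of the partner complex PRC1 were called, both positive, against 1.63% of all genes: Bmi1 rose in both cultures, from 70.9, 76.4 and 77.4 to 239.8, 231 and 218 CPM in Th0 and from 49.4, 48.3 and 45.9 to 253, 238 and 297 CPM in iTreg, and more in iTreg (interaction 0.84, SE 0.15, adjusted p = 0.012), and Pcgf5 rose in iTreg (interaction 0.76, 3 fits, p up to 0.0965). Kdm6b, a demethylase of the same histone residue, fell in iTreg from 81.2, 71.4 and 77.8 to 28.5, 29.0 and 46.2 CPM and was at 22.5, 19.9 and 19.9 and 21.0, 24.6 and 20.8 CPM in Th0 (interaction -1.25, SE 0.25, adjusted p = 0.0235, 4 fits, p up to 0.0694).

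B cell markers were part of the negative calls. Of 9 tested, 7 were called, all negative (against 2.86% of all genes), with a median of -3.96. The fits without 1 library called 6 or 7. Their summed level was 31.5 to 56.6 CPM in Th0 controls, 95.4 to 222 CPM in Th0 Ezh2KO cells, 12.5 to 14.2 CPM in iTreg controls and 4.15 to 6.25 CPM in iTreg Ezh2KO cells. The defining factor Pax5 was at 1.23 to 2.56 CPM in Th0 Ezh2KO cells and at 0 to 0.0899 CPM in iTreg Ezh2KO cells. Immunoglobulin J chain (Igj) rose in Th0 from 0.125, 0.346 and 0.117 to 53.1, 19.9 and 15.8 CPM (interaction -7.50), and the oxidase subunit Cybb, which B cells and phagocytes express, rose there from 3.22, 2.57 and 4.77 to 20.8, 11.8 and 14.0 CPM (interaction -5.09). Both were highest in Th0.Ezh2KO.165, as was the summed B cell level. Several genes above with negative interactions, such as Ccr6, Cd83 and Cxcr4, are also expressed by B cells. The part of B cells in these values was not tested. No marker of myeloid, dendritic, CD8 T, natural killer, erythroid or stromal cells was called by edgeR, and DESeq2 called 2 of 4 dendritic and 1 of 2 CD8 T cell markers, with positive values. Without iTreg.Ezh2KO.165 edgeR called 1 each of the myeloid markers and stromal markers, with negative values, and 1 of the dendritic markers, with a positive one.

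**Figure D4:**
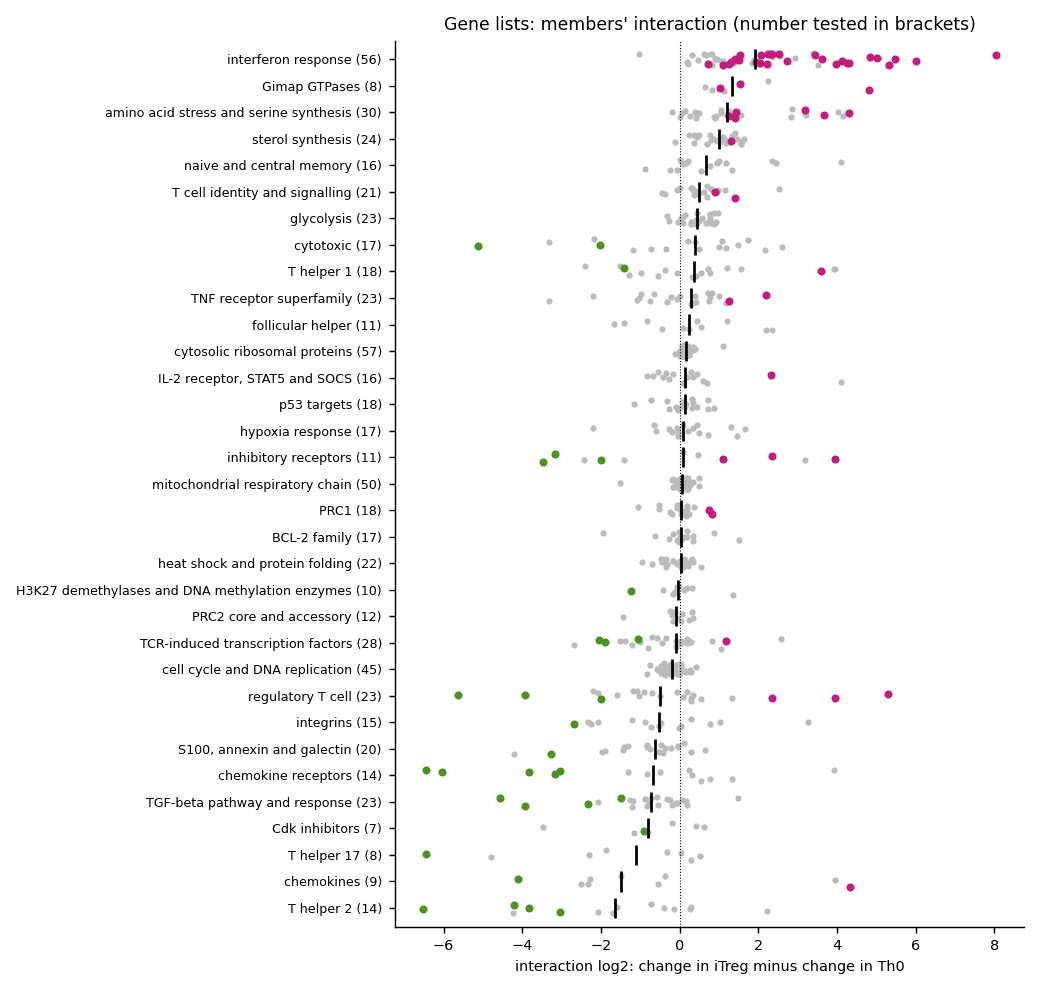
Interaction log2 (x axis) of each tested member of the 33 gene lists (rows, number tested in brackets). Large coloured points are called, black bars are medians, and the dotted line is the median of all genes. Interferon genes have the highest median (1.92) and T helper 2 genes the lowest (-1.64). The highest rank changed without iTreg.Ezh2KO.165. The lowest changed without Th0.Ezh2KO.165 and also without iTreg.Ezh2fl/fl.177, where chemokines had a median of -1.96.

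The H3K27me3 libraries of Th0 cells gave a description of the genes by their mark. A gene was marked if its mean density in control cells was among the top 10% of 12592 tested genes with ChIP counts. Of the called genes 134 of 570 were marked (23.5%), with 113 of 364 negative calls (31.0%) and 21 of 206 positive calls (10.2%). By pattern, 87 of 267 genes with a rise in Th0 and a fall in iTreg were marked and 20 of 47 genes with a larger rise in Th0. Marked genes were 15 of 81 with a larger rise in iTreg, 6 of 50 with a larger fall in iTreg, 6 of 116 with a fall in Th0 and a rise in iTreg, and 0 of 9 with a larger fall in Th0. No interferon gene with values above was marked. Lmna, the nuclear lamin A/C gene (chromosome 3, 88481148 to 88509956), had 2.86 and 3.04 CPM per kb in the control and 1.02 and 0.988 in the Ezh2KO libraries. Its RNA rose in Th0 from 3.14, 2.38 and 2.46 to 36.4, 28 and 28.4 CPM and was at 1.54, 1.36 and 0.748 and 0.892, 0.805 and 0.719 CPM in iTreg (interaction -4.13, SE 0.36, adjusted p = 0.00061). Nlrp6, an innate immune sensor, had 3.57 and 4.87 CPM per kb in the control and 1.44 and 1.56 in the Ezh2KO libraries, and its RNA rose in Th0 from 0.251, 0.423 and 0.273 to 5.46, 3.69 and 3.45 CPM and fell in iTreg from 99.1, 85.8 and 24.3 to 2.80, 3.09 and 0.359 CPM (interaction -8.76). In contrast, Nrn1 had 2.55 and 3.27 CPM per kb in the control and 1.16 and 1.29 in the Ezh2KO libraries, while its RNA fell in Th0. The mark was measured in Th0 cells alone, and its density in iTreg cells was not analysed here.

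Several functions had no called interaction in the edgeR test with all 12 libraries. None of 45 cell cycle and DNA replication genes was called (median -0.19, 1 with an unadjusted p below 0.05, 1 called by DESeq2). The same held for 23 glycolysis genes (median 0.43, 3 and 1), 50 respiratory chain genes (0.06, 1 and 1), 57 cytosolic ribosomal protein genes (0.16, 3 and 6), 16 naive and central memory genes (0.67, 2 and 1) and 11 follicular helper genes (0.24, 2 and 1). DESeq2 called none of 18 p53 targets, 17 BCL-2 family, 17 hypoxia and 22 heat shock genes, of which 0, 0, 2 and 0 had an unadjusted p below 0.05. Over all genes 1991 did. These counts of 0 depended on the libraries that stood apart, and so did the count over all genes, 577 of 12845 with all libraries. In the fits without these libraries, with many more calls over all genes, a count of called members alone does not show a response particular to a list. Without iTreg.Ezh2KO.165 and iTreg.Ezh2fl/fl.177, when 5347 genes were called in all, edgeR called 8 positive and 7 negative for cell cycle and DNA replication, 10 and 1 for glycolysis, 19 and 1 for mitochondrial respiratory chain, and 29 and 0 for cytosolic ribosomal proteins. It called 4 and 4 for naive and central memory, 1 and 4 for follicular helper, 10 and 3 for heat shock and protein folding, 5 and 1 for p53 targets, 5 and 1 for BCL-2 family and 4 and 2 for hypoxia response. Without iTreg.Ezh2KO.165 alone it called 11 ribosomal, 5 respiratory chain and 5 follicular helper genes. In that fit, with 2552 calls in all, naive and central memory genes had a median of -0.43, follicular helper genes -1.09, cell cycle genes 0.21 and TNF receptor superfamily genes -0.14, the last against 0.30 with all libraries. Lists with 1 or 2 calls included the TNF receptor superfamily, with the cytokines Ltb (2.19, 11 fits, p up to 0.0504) and Tnfsf4 (1.25, 2 fits, p up to 0.124) of 23, the integrins, with Itgb5 (-2.70, 7 fits, p up to 0.0678) of 15, and the Cdk inhibitors, with Cdkn2c (-0.91, 2 fits, p up to 0.109) of 7. Among all genes 1.63% had positive and 2.86% negative calls, and counts of 1 or 2 are too few to set a list apart from them. In simulated data with 1 spread per gene for all libraries, 65% of genes with a 4-fold interaction were called, but 4% of genes with a 2-fold one. That spread was estimated from these data, and only genes at 5 CPM or more in Th0 controls were changed. No simulated library stood apart from its replicates by design, so these shares need not hold for the real libraries. The interactions of Cdkn2a (-0.80, adjusted p = 0.915), Il7r (4.10, 0.255), Tcf7 (2.35, 0.582), Ikzf2 (1.33, 0.782), Il2ra (0.09, 0.995), Myc (0.19, 0.989) and Bcl6 (0.24, 0.99) were not called. Several of these had values in iTreg.Ezh2KO.165 far from its replicates, such as 2474 CPM of Tcf7 against 96.5 and 70.4.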

How the data were processed

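RNA was sequenced from 12 mouse CD4 T cell cultures (TruSeq RNA v2, which does not record strand, so overlapping genes cannot be told apart). Per the submitters' processing notes, which list names without roles, the authors used Trimmomatic 0.30, TopHat2 2.0.6, Bowtie2 2.1.0, featureCounts 1.4.2 and the mm10 genome. How reads with several matches were treated is not given in the sources used here. The deposited values are raw counts per gene, 21910114 to 28443427 per library, and counts per gene interval for the 4 ChIP libraries, used as CPM per kb without input or scaling to a spike-in. Nothing states that replicates came from separate animals, so p-values measure the spread between these samples.

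Counts of 23420 genes were tested with edgeR 4.0.16 in R 4.3.3: TMM scaling, removal of genes with low counts (filterByExpr, minimum 10; 12845 genes left), 1 robust quasi-likelihood fit of 4 groups, two-sided tests and Benjamini-Hochberg adjustment over all genes with a threshold of 0.05. CPM are scaled by TMM. The SE printed with an interaction is its absolute log2 value divided by the square root of the F statistic of its test. It is thus derived from the test and is approximate, above all for genes with few reads. The fit was checked on simulated counts of 12845 genes, 100 of them changed 2-fold and 100 changed 4-fold in the interaction: 71 were called, 2 of them falsely. The simulation gave each gene 1 spread for all libraries and the Th0 control level in all groups. It held no libraries that stood apart, so its rate of false calls need not hold for the real data.

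Alternatives used other scalings, filters, DESeq2 1.42.0, limma 3.58.1 and fewer libraries. Groups share at most 1 title number, and the correlation of same-numbered libraries' deviations was 0.0445 (Ezh2KO.165) and -0.0031 (Ezh2fl/fl.177); the fit had no block, and a fit with one is among the alternatives. Of 689 listed symbols 688 were found, 3 under another symbol. Named genes were Ezh2, 20 fixed genes, up to 6 per response pattern with at least 5 CPM in a group and no overlap between genotypes in a culture, the 10 smallest p and up to 4 per list; some of these are not reported here. The members, lists and rule were chosen with earlier results of these data known.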

Additional observations from a re-analysis of the deposited data

Results flagged for a closer look

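For each gene named here the response to Ezh2 loss differed between the cultures by the interaction test itself; values are the log2 change in iTreg minus that in Th0, from the 577 called genes. Fitted rises in iTreg with fitted falls in Th0 belonged to Gimap7 (4.81), Nrn1 (5.30), Gucy1a3 (6.37), Ifi47 (1.10), Isg15 (4.84), Ifi44 (8.04), Cebpb (1.43), Jun (1.19), Pim2 (2.33), Ifit1 (5.49) and Ltb (2.19). In the same direction followed Cd3g (1.4), Slc6a9 (3.66), Atf5 (1.26), Ifit3 (5.02), Rsad2 (6.02), Gimap4 (1.53) and Pcgf5 (0.76). Fitted falls in iTreg with fitted rises in Th0 belonged to Sgk1 (-4.30), Fes (-4.67), Zcchc24 (-2.91), Gna15 (-2.61), Sestd1 (-2.14), Cybb (-5.09), Lmna (-4.13), Nrp1 (-3.92), Igj (-7.50), Nlrp6 (-8.76) and Cd83 (-5.64). In the same direction followed Ccr6 (-6.43), Ccr8 (-3.04), Cxcr4 (-3.17), Prf1 (-5.11), Ctsw (-2.03), Nfatc2 (-1.06), Cx3cr1 (-6.04), Smad3 (-1.49), Maf (-4.21), Cyp11a1 (-6.80) and Hepacam2 (-8.62). In the same direction followed Ccr4 (-3.81), Itgb5 (-2.70), Kdm6b (-1.25), Cd200r1 (-3.46), Ifngr2 (-1.4), Ltbp4 (-2.33), Il1rl1 (-6.52), Cdkn2c (-0.91), Id1 (-4.56) and Dab2 (-7.71). Fitted rises in both cultures, larger in iTreg, belonged to Plac8 (4.61), Lgals3bp (2.73), Osgin1 (3.89), Tigit (2.35), Gimap5 (1.02), Serpina3f (3.52), Usp18 (3.45), Bmi1 (0.84), Atf3 (4.31), Cxcl10 (4.34) and Il12rb2 (3.59). In the same direction followed Tnfsf4 (1.25). Fitted rises in both, larger in Th0, belonged to Adam8 (-3.39), Havcr2 (-3.16), Cyp1b1 (-6.22), Fosl2 (-2.04), Tspan9 (-3.50), Ccl1 (-4.10), Ltb4r1 (-3.22), Egr3 (-1.89) and Lgals3 (-3.27). Fitted falls in both, larger in iTreg, belonged to Pdlim4 (-3.87), Runx1 (-3.76), Papln (-6.29), She (-3.13), Prg4 (-3.11) and Pyroxd2 (-4.91). Fitted falls in both, larger in Th0, belonged to Ctla4 (3.95), Tmcc3 (1.19), Tm7sf2 (1.32), Eno3 (1.97), Trib3 (1.4) and Phf11b (1.4). Of all 577 called genes, 83 are named here and 245 kept their call in each fit without 1 library.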

How the results depend on the processing

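Called genes retained their sign in every alternative that tested them. The 577 interaction calls are followed in brackets by the interaction calls, higher (209), the interaction calls, lower (368) and the opposite-sign genes among interaction calls (389). They became 1266 with DESeq2 (538, 728 and 800) and 5690 in limma-voom with quality weights (2668, 3022 and 3015), which gave iTreg.Ezh2KO.165 a weight of 0.0201 and iTreg.Ezh2fl/fl.177 a weight of 0.0755. Without those libraries there were 5347 calls (2584, 2763 and 2848), without Ezh2KO.165 in both cultures 1805 (709, 1096 and 1095), and without Ezh2KO.165 and Ezh2fl/fl.177 in both cultures 4961 (2373, 2588 and 2680). Fits without 1 library gave 271 to 2552 calls (72 to 1054, 197 to 1498 and 186 to 1557). Other scalings, filters and a non-robust fit gave 480 to 617. A replicate block on the title number, fitted in limma-voom, gave 509 calls against 512 in limma-voom without it (consensus correlation -0.0087), but only 1 number was shared between any pair of groups. The genotype calls in Th0, 1536, ranged from 799 to 3529 in fits without 1 library, 6697 without iTreg.Ezh2KO.165 and iTreg.Ezh2fl/fl.177 (an alternative added after seeing the data) and 6397 with the 6 Th0 libraries alone. The genotype calls in iTreg, 2147, ranged from 1376 to 5763, and were 7409 and, with the 6 iTreg libraries alone, 539. The cause of these differences was not tested.

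Genes whose interaction changed sign were not called. Tcf7 was -0.56 with quality weights, -0.48 without the libraries that stood apart, -1.20 without Ezh2KO.165, -0.55 without both numbers, and -1.05 to 2.92 in fits without 1 library. Ikzf2 was -0.22, -0.39, -0.73 and -0.071 in the same order, and -1.0 to 1.94. Bcl6 was -1.50, -1.60, -1.64 and -1.30 in that order, -0.72 in limma-voom with or without the replicate block, and -1.79 to 0.72. Ezh2 was 0.022 with quality weights, 0.18 without Ezh2KO.165, and -0.40 to 0.13. Gzma was 0.30 without Ezh2KO.165, and -0.77 to 0.17. Myc was -0.12 and Il2ra -0.14 in limma-voom with or without the block, with ranges of -0.20 to 0.66 and -0.20 to 0.54.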
